A study of Homo sapiens with 6 samples.

Results

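The fibroblast growth factor receptor genes FGFR1, FGFR2, FGFR3 and FGFR4 were read by 20 probe sets, 6, 10, 2 and 2 respectively, out of 19065 probe sets with a single gene symbol on an Affymetrix expression array of 22283 probe sets. A probe set was taken as a member when its only gene symbol in the platform annotation was one of these genes. Each was read in 6 arrays of total RNA, 3 from SUM44 and 3 from LCCTam. SUM44 is a human breast cancer line of invasive lobular type, labelled as positive for estrogen and progesterone receptors and sampled at passages 74, 75 and 76 (replicates 1 to 3). LCCTam is a tamoxifen-resistant variant of SUM44, sampled at passages 8, 9 and 10. Both lines were grown in SFIH medium (Ham's F12) to 70% confluence, and LCCTam alone had 500 nM 4-hydroxytamoxifen, an active metabolite of tamoxifen, in its medium, so the line and the drug cannot be told apart. The labels do not say whether the passages were separate cultures, so the spread behind the p-values may be technical.

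Fibroblast growth factor receptors are tyrosine kinases of the cell surface. They bind fibroblast growth factors together with heparan sulfate or a Klotho protein, pair up, and signal through the adaptor FRS2 to the RAS-MAPK and PI3K pathways, which are then damped by Sprouty proteins and dual-specificity phosphatases. FGFR1, FGFR2 and FGFR3 are spliced in their ligand-binding part into forms with different ligand preferences, while FGFR4 is known above all as the receptor for FGF19 in liver. In breast cancer FGFR1 is known for amplification in some luminal tumours, and FGFR4 is expressed in part of them.

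The values were log2 expression levels. No detection calls came with them, so it is unknown at which level a probe set reads background alone. Percentiles rank the brightness of probe sets on the array and do not compare transcript amounts between genes. LCCTam replicate 3 stood apart in RNA quality measures. For actin, the 3′ control exceeded the 5′ control by 1.92 in log2 there and by 0.90 to 1.15 elsewhere, and the 75th percentile of all its log2 values was 7.50, where the 5 remaining arrays had 7.68 to 7.78. Values without it are given beside several results below. The 10 luminal epithelial markers measured were bright in both lines, between percentiles 90.0 and 99.7 of all probe sets, and 2 of them passed the test, ESR1 and TFF1, both lower in LCCTam. Of 3 basal epithelial markers 1 passed, ITGB4, lower in LCCTam by a log2 difference of -0.84 (limma adjusted p = 0.0239). The 6 fibroblast, 4 leukocyte and 5 endothelial markers lay between percentiles 0.62 and 64.6. Of these 15, 0 passed in limma, with 0 at an unadjusted p under 0.05 as well. Of all 11963 genes, each read by its brightest probe set, 7.76% passed and 23.5% had an unadjusted p under 0.05. With so few markers, these counts are not read as a result about cell types.

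FGFR4 was higher in LCCTam than in SUM44 in both of its probe sets, and it was the only FGFR gene with a probe set that passed the test. The test was limma's over all 19065 named probe sets, with an adjusted p under 0.05 (Benjamini-Hochberg) counted as passing, and differences are LCCTam minus SUM44. Of all probe sets 7.37% passed in either direction and 1.72% passed as higher and 5.65% as lower in LCCTam, while 2 of the 20 FGFR probe sets passed, both of them higher. Because RNA of whole cultures was measured, a greater share of cells with FGFR4 transcript and more transcript per cell cannot be told apart.

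**Figure D1:**
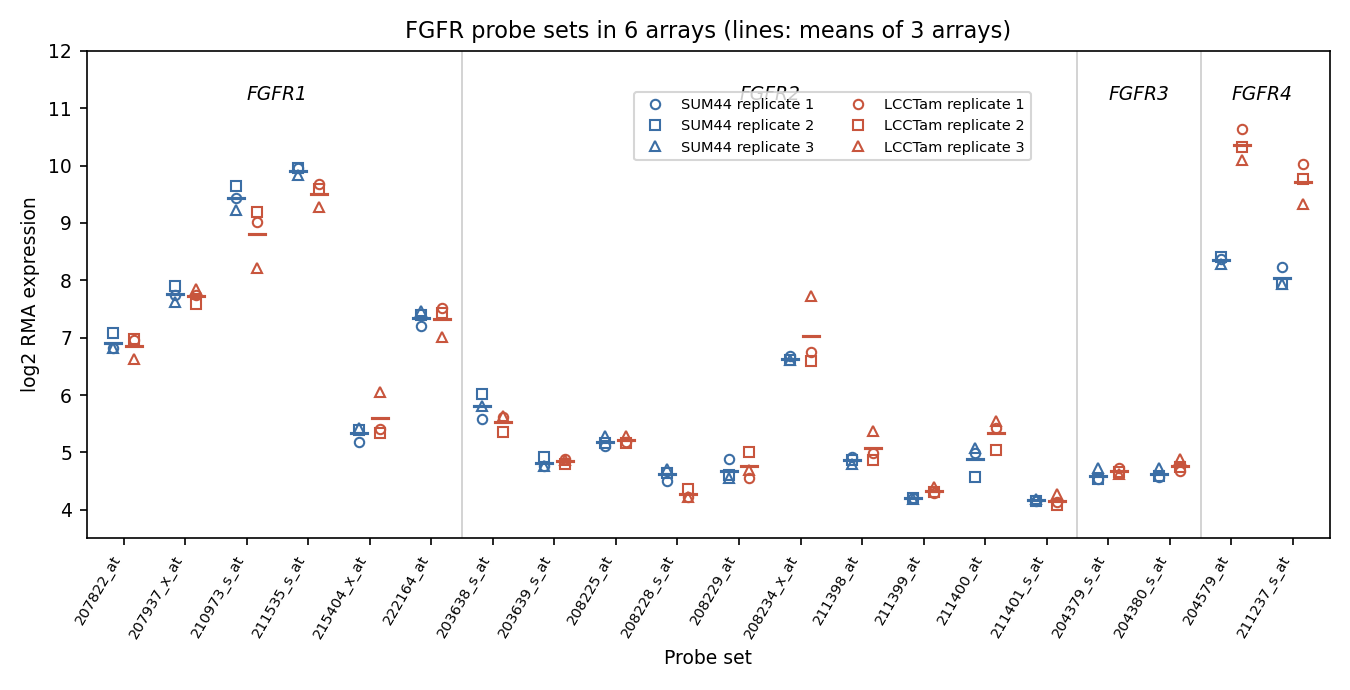
Log2 expression of each of the 20 FGFR probe sets in the 3 SUM44 arrays (blue) and the 3 LCCTam arrays (red), with symbols for the replicates and lines for the means. The FGFR4 values of LCCTam lie above all FGFR4 values of SUM44 in both probe sets, and LCCTam replicate 3 sits apart from the other LCCTam arrays in several FGFR1 and FGFR2 probe sets.

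The FGFR4 probe set 204579_at had log2 expression values of 8.37, 8.40 and 8.28 in SUM44 replicates 1 to 3 and of 10.64, 10.33 and 10.10 in LCCTam replicates 1 to 3. The lowest LCCTam array therefore stood well above the highest SUM44 array, and the SUM44 arrays lay close together. The mean log2 level went from 8.35 ± 0.06 to 10.36 ± 0.27 (SD, n = 3 each). The log2 difference of 2.01 (SE 0.14, limma adjusted p = 0.00093) was a 4.02-fold change with a 95% interval of 3.19 to 5.06-fold. Without LCCTam replicate 3 it was 2.13 (adjusted p = 0.00118), in a fit where 11.7% of all probe sets passed.

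The other FGFR4 probe set, 211237_s_at, had log2 values of 8.23, 7.93 and 7.94 in SUM44 and of 10.02, 9.77 and 9.32 in LCCTam. Here too the lines did not overlap, and in both probe sets LCCTam replicate 1 was the highest array and LCCTam replicate 3 the lowest of its line. Its log2 difference was 1.67 (SE 0.18, limma adjusted p = 0.00413), which is 3.18-fold with a 95% interval of 2.35 to 4.30-fold. The intervals of both probe sets overlap. By the brightest probe set of each gene, FGFR4 had rank 18 among 11963 genes when ordered from the largest positive difference down. Both FGFR4 probe sets met the study's own selection as its design text gives it. That selection asked for a 2-fold change or more, for p under 0.05 in a test left unnamed (limma's unadjusted p was used), and for an intensity of log2(10) or above in each line. None of the other 18 FGFR probe sets met it, and 2.23% of all probe sets did.

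FGFR4 lies at chr5:177086915-177098144 on the plus strand of GRCh38.p14 in RefSeq. RefSeq gives it a pair of start sites 2635 bases apart, and the array values do not tell which was used. The 250 bases before each start are shown because FGFR4 is the member whose level differed, with matches to the motifs searched in capitals, 5′ to 3′. The first, chr5:177086665-177086914, is the window before the upstream start, and the second, chr5:177089300-177089549, the window before the downstream start.
FGFR4 upstream start: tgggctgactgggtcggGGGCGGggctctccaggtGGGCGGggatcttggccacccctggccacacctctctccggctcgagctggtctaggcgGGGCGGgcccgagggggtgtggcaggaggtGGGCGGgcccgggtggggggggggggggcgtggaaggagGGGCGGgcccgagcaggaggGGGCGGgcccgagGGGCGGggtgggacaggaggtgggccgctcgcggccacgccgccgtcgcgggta
FGFR4 downstream start: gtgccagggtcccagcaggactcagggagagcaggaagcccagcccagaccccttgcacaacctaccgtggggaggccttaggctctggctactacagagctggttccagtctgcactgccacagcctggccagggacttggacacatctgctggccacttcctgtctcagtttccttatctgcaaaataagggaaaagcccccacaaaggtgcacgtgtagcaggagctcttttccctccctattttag
Every run of capitals is a GC box (GGGCGG), the core bound by SP1-type factors. The upstream window held 7 of them, all on the plus strand, and 79.6% of its bases were G or C. Among 35116 start-site windows of this length, 42.6% held at least 1 GC box on either strand, 1.12% held at least 7, and the median G and C content was 58.0%. The downstream window held 0 GC boxes and had a G and C content of 57.2%. Neither window held the half-site of estrogen-related receptors (AAGGTCA, in 3.44% of all windows), an AP-1 site (TGANTCA, in 6.57%) or a full estrogen response element (GGTCA and TGACC with any 3 bases between, in 0.0399%). Both strands were searched, and the motifs could overlap. These matches describe the letters in the windows only.

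FGFR1, FGFR2 and FGFR3 had 0 of 18 probe sets passing in limma, with 4 of 18 at an unadjusted p under 0.05, against 22.7% of all probe sets. The differences of the 18 ranged from -0.63 to 0.45, with a median of 0.03, and 10 were positive and 8 negative. Values of the lines did not overlap in 4 of the 18, against 29.6% of all probe sets. A probe set that missed the threshold is not shown to be equal in the lines. For 14 of the 18 the 95% interval of the difference included 0.

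**Figure D2:**
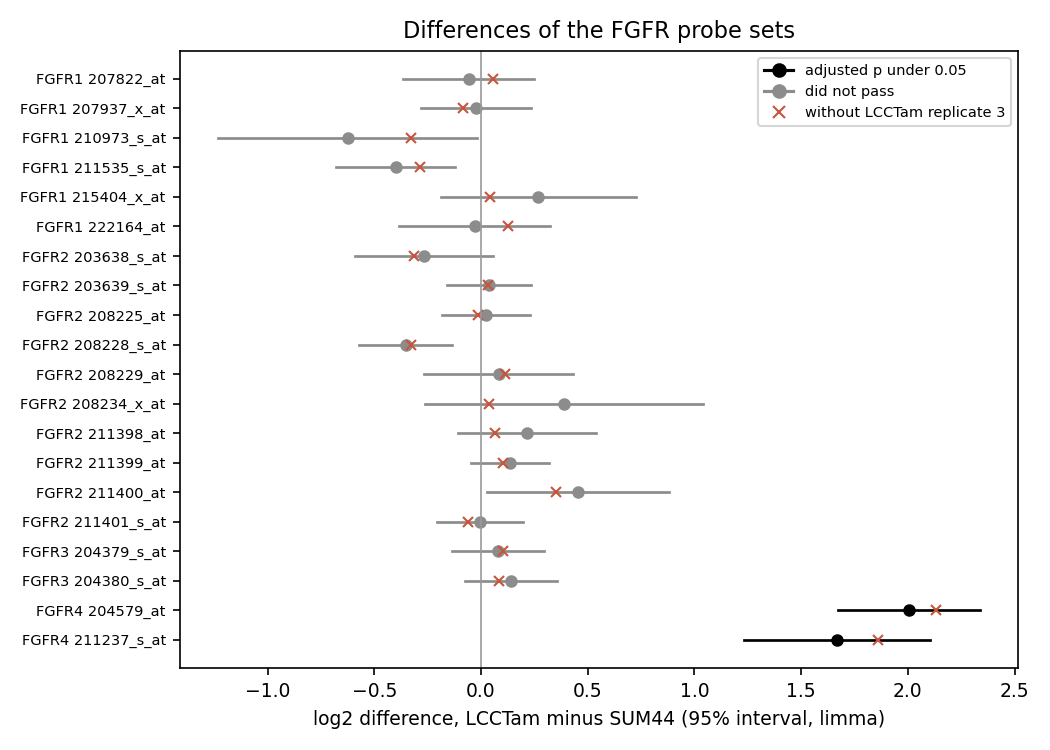
Log2 difference, LCCTam minus SUM44, of each FGFR probe set with its 95% interval from limma (circles and bars; black where the adjusted p was under 0.05), and the difference without LCCTam replicate 3 (crosses). The 2 FGFR4 probe sets, at 2.01 and 1.67, lie apart from the other 18, which lie between -0.63 and 0.45.

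FGFR1, at chr8:38411143-38468635, had its clearest differences in a pair of bright probe sets, both downward. The probe set 211535_s_at had log2 values of 9.95, 9.95 and 9.83 in SUM44 and of 9.67, 9.59 and 9.28 in LCCTam. All 3 LCCTam arrays were lower than all 3 SUM44 arrays, but the log2 difference of -0.40 (SE 0.12, 95% interval -0.68 to -0.12) did not pass, with a limma adjusted p of 0.0956. For 210973_s_at the values were 9.43, 9.65 and 9.22 in SUM44 and 9.02, 9.18 and 8.21 in LCCTam. Again the lines did not overlap, and LCCTam replicate 3 was far below the other LCCTam arrays. The log2 difference was -0.63 (SE 0.26, limma adjusted p = 0.207), and it was -0.33 (adjusted p = 0.198) without that array.

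The other 4 FGFR1 probe sets overlapped between the lines. The probe sets 207822_at, 207937_x_at and 222164_at had log2 differences of -0.06, -0.02 and -0.03, and their widest 95% interval ran from -0.38 to 0.33. Without LCCTam replicate 3 these differences were 0.06, -0.08 and 0.13. The probe set 215404_x_at read 5.18, 5.40 and 5.42 in SUM44 and 5.41, 5.34 and 6.05 in LCCTam, so only LCCTam replicate 3 was high. Its log2 difference was 0.27, and 0.04 without that array. The 95% intervals of these 4 probe sets included 0 and overlapped those of the bright pair. Probe sets with the suffix _x_at can cross-hybridize with other transcripts, and which FGFR1 transcripts each probe set reads was not worked out here.

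FGFR2, at chr10:121478330-121598458, was read mostly at low levels. Of its 10 probe sets 9 had mean log2 levels between 4.16 and 5.80 in SUM44, and 208234_x_at had 6.63. In that brightest one the values were 6.68, 6.61 and 6.60 in SUM44 and 6.74, 6.60 and 7.72 in LCCTam. LCCTam replicate 3 alone was high, and the log2 difference of 0.39 (SE 0.28, limma adjusted p = 0.453) was 0.04 without it.

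The FGFR2 probe set nearest to the threshold was 208228_s_at, with log2 values of 4.51, 4.64 and 4.72 in SUM44 and of 4.22, 4.36 and 4.22 in LCCTam. The lines did not overlap, at levels where expression cannot be told from background. The log2 difference was -0.35 (SE 0.09, limma adjusted p = 0.0676), and it was -0.33 (adjusted p = 0.0810) without LCCTam replicate 3. It passed with a trended, robust variance prior (adjusted p = 0.0371) and with array weights (adjusted p = 0.00313). The probe set 211400_at lay in the other direction, at 4.99, 4.57 and 5.08 in SUM44 and 5.42, 5.04 and 5.54 in LCCTam (log2 difference 0.45, SE 0.18, limma adjusted p = 0.193). SUM44 replicate 3 was above LCCTam replicate 2 there. The remaining 7 FGFR2 probe sets had limma adjusted p-values between 0.305 and 0.987, and among these 211399_at was the one whose lines did not overlap, with a log2 difference of 0.14.

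FGFR3, at chr4:1793293-1808867, was dim in both of its probe sets, between percentiles 21.8 and 25.1 of all probe sets. The probe set 204380_s_at had log2 values of 4.58, 4.59 and 4.72 in SUM44 and of 4.68, 4.74 and 4.88 in LCCTam. For 204379_s_at they were 4.53, 4.53 and 4.73, and 4.73, 4.67 and 4.63. The lines overlapped in both. The log2 differences were 0.14 (95% interval -0.08 to 0.36, limma adjusted p = 0.414) and 0.08 (95% interval -0.14 to 0.29, adjusted p = 0.654). Whether FGFR3 was expressed at all cannot be read from such levels.

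The change of FGFR4 was also read within each array, as the log2 value of 204579_at minus that of the brightest probe set of another FGFR gene. Probes differ in how strongly they bind, so only the shift of this quantity between the lines is given. Against FGFR1, whose probe set was bright, the shift was 2.41, LCCTam minus SUM44. Against FGFR2 it was 1.62, or 2.10 without LCCTam replicate 3, and against FGFR3 it was 1.87. The FGFR2 probe set was of middling brightness (percentile 60.7 in SUM44 and 67.4 in LCCTam), and the FGFR3 one was dim. Without detection calls it is unknown whether either reads more than background. Against a probe set at background, the shift would largely restate the FGFR4 difference. Each of the 3 shifts gave p = 0.1 in a two-sided exact permutation test, before and after adjustment over the 3 pairs. This is the smallest p that 3 arrays against 3 allow.

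Among other genes of the FGF pathway, changes went both ways, and of 9 feedback inhibitors 2 rose, 1 fell and 6 did not pass. The pathway was described by 7 gene lists with 81 measured genes, each read by its brightest probe set. Of the 81, 6 rose, 6 fell and 69 did not pass. The passing genes were 14.8% of the 81, where 7.76% of 11963 genes passed in limma, 2.03% as higher and 5.73% as lower in LCCTam. The lists were chosen with earlier results of these data known, so this comparison is not a test of the pathway. The median log2 difference of the 81 was 0.08, against 0.02 for all genes. An unadjusted p under 0.05 was reached by 28 of the 81 and by 23.5% of all genes, and the lines did not overlap in 33 of the 81 and in 29.8% of all genes. With quantile normalization 8 rose and 4 fell. The counts changed when single arrays were left out. They were 3 higher and 2 lower without SUM44 replicate 1, 2 and 0 without SUM44 replicate 2, 3 and 4 without SUM44 replicate 3, 2 and 2 without LCCTam replicate 1, and 2 and 3 without LCCTam replicate 2. Without LCCTam replicate 3 they were 7 and 8, with 12.7% of all genes passing. The share of all genes passing without any other array is not given here. The changes in these counts are therefore not a result about the pathway genes.

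**Figure D3:**
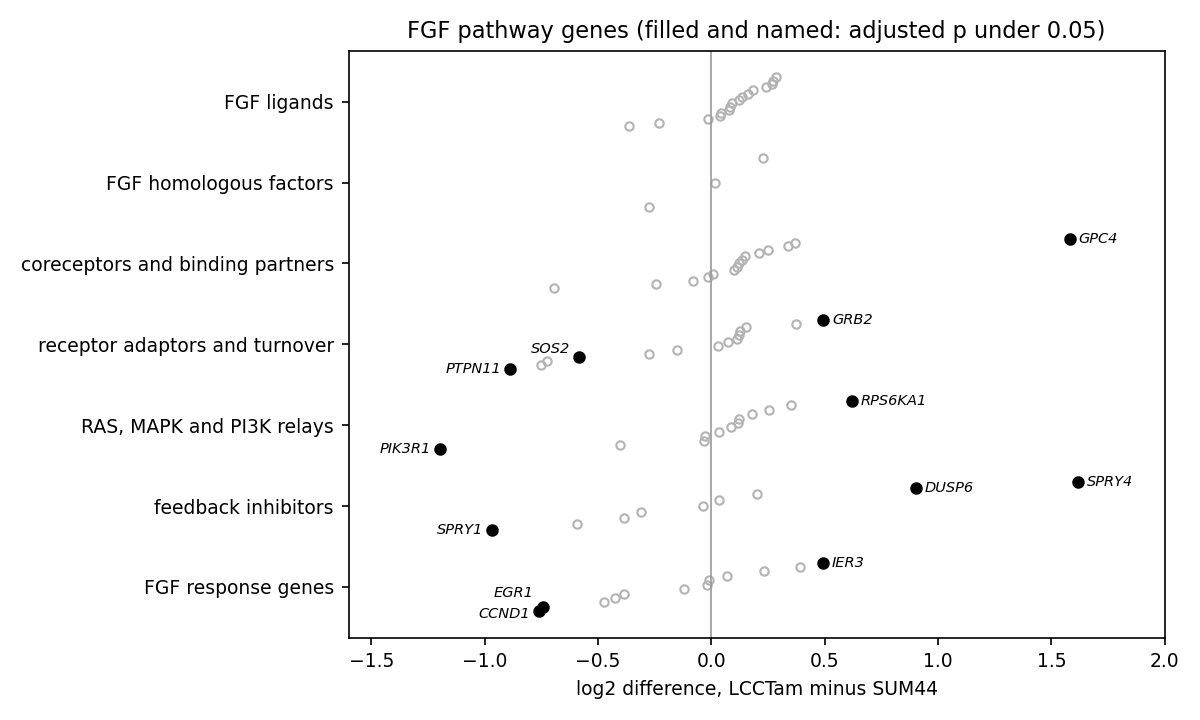
Log2 difference, LCCTam minus SUM44, of each measured gene in 7 FGF pathway lists, by its brightest probe set; filled points with names passed the limma test and open points did not. The ligands lie between -0.36 and 0.28 with none passing, and SPRY4 and GPC4, at 1.62 and 1.58, are the farthest to the right.

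Fibroblast growth factor ligands had 0 of 16 measured genes passing in limma, where 7.76% of all genes passed. FGF19 and FGF10 were listed but had no probe set with a single gene symbol, so nothing is known here of their levels. An unadjusted p under 0.05 was reached by 2 of them and by 23.5% of all genes. The log2 differences of the ligands ran from -0.36 for FGF1, a ligand of all FGF receptors, to 0.28 for FGF5. The median was 0.11, or 0.04 without LCCTam replicate 3. FGF1 had mean log2 levels of 5.27 ± 0.12 (SD) for SUM44 and 4.91 ± 0.18 for LCCTam with n = 3 each (limma adjusted p = 0.116), and its other probe set had a difference of 0.00. The FGF homologous factors, which stay inside the cell and do not act through FGF receptors, had 0 of 3 genes passing, also 0 at an unadjusted p under 0.05. FGF13 was the one with the largest difference, at -0.27 (adjusted p = 0.313).

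Coreceptors and binding partners had 1 of 15 genes passing, near the 7.76% of all genes. The passing gene was GPC4, a glypican that carries heparan sulfate chains, and it rose. Its brighter probe set read 6.13, 6.50 and 7.20 in SUM44 and 8.06, 8.29 and 8.23 in LCCTam. The lines did not overlap, although SUM44 varied more than LCCTam. The log2 difference was 1.58 (SE 0.25, limma adjusted p = 0.0147), and the other probe set gave 1.64 (adjusted p = 0.0181). It missed the threshold without SUM44 replicate 2 (adjusted p = 0.0835), without LCCTam replicate 1 (0.0565) and without LCCTam replicate 2 (0.0567). Klotho (KL), a coreceptor of the endocrine FGFs, had a log2 difference of 0.21 at a dim mean level of 3.52 in SUM44 (adjusted p = 0.16).

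Of 14 genes for receptor adaptors and turnover 1 rose and 2 fell, where 2.03% of all genes passed as higher and 5.73% as lower. PTPN11, which encodes the phosphatase SHP2 that joins the receptor complex through FRS2 and GAB1, fell by 0.89 on the log2 scale (limma adjusted p = 0.0252), and 3 of its 5 probe sets passed. SOS2, an exchange factor that activates RAS, fell by 0.58 (adjusted p = 0.0381), and 2 of its 5 probe sets passed. The SOS2 probe sets that did not pass gave -0.12, 0.02 and 0.01, and those of PTPN11 gave -0.08 and -0.07. The adaptor gene GRB2 rose by 0.49 (adjusted p = 0.0481). Among 12 measured RAS, MAPK and PI3K relays 1 rose and 1 fell, beside the same shares of all genes. PIK3R1, the regulatory subunit of PI3K, went from 9.77 ± 0.15 to 8.57 ± 0.31 (SD, n = 3 each; log2 difference -1.20, limma adjusted p = 0.00939), and 3 of its 3 probe sets passed. RPS6KA1, a kinase activated by ERK, rose by 0.62 (adjusted p = 0.0273). PTPN11, SOS2, GRB2 and RPS6KA1 each missed the threshold when any one of SUM44 replicates 1 to 3 or LCCTam replicates 1 and 2 was left out (adjusted p from 0.0515 to 0.169). With quantile normalization PTPN11 and SOS2 missed it as well (0.0562 and 0.102). PIK3R1 missed it without SUM44 replicate 2 (adjusted p = 0.0574).

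Feedback inhibitors of receptor signalling had 9 measured genes, of which 2 rose, 1 fell and 6 did not pass. Of all genes 2.03% passed as higher and 5.73% as lower. SPRY4, a Sprouty protein induced by FGF and ERK signalling that damps the same pathway, had log2 values of 8.20, 7.92 and 8.16 in SUM44 and of 9.88, 9.79 and 9.47 in LCCTam. All LCCTam arrays were well above all SUM44 arrays. This was a 3.07-fold change, 1.62 in log2 (SE 0.14, limma adjusted p = 0.00171). DUSP6, a phosphatase that inactivates ERK, read 8.68, 8.83 and 8.95 in SUM44 and 9.61, 9.92 and 9.63 in LCCTam, also without overlap (log2 difference 0.90, SE 0.12, limma adjusted p = 0.00754). Its other probe sets gave 0.98 (adjusted p = 0.0170) and 0.74 (adjusted p = 0.0540). SPRY4 and DUSP6 passed with each of the 6 arrays left out in turn, at adjusted p-values of at most 0.016 and 0.0492.

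SPRY1, another Sprouty gene, went the other way. It read 7.78, 7.43 and 7.21 in SUM44 and 6.73, 6.57 and 6.21 in LCCTam, a log2 difference of -0.97 (SE 0.19, limma adjusted p = 0.0267). The lines did not overlap, but the adjusted p was 0.112 without SUM44 replicate 2, 0.0538 without SUM44 replicate 1, 0.0586 without LCCTam replicate 1 and 0.0743 without LCCTam replicate 2. The 6 genes that did not pass lay on both sides of 0. DUSP5 had a log2 difference of -0.59, SPRED2 of -0.38, DUSP7 of -0.31, NF1 of -0.04, SPRY2 of 0.03 and DUSP4 of 0.20. Their adjusted p-values ran from 0.164 for DUSP5 to 0.892 for SPRY2.

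**Figure D4:**
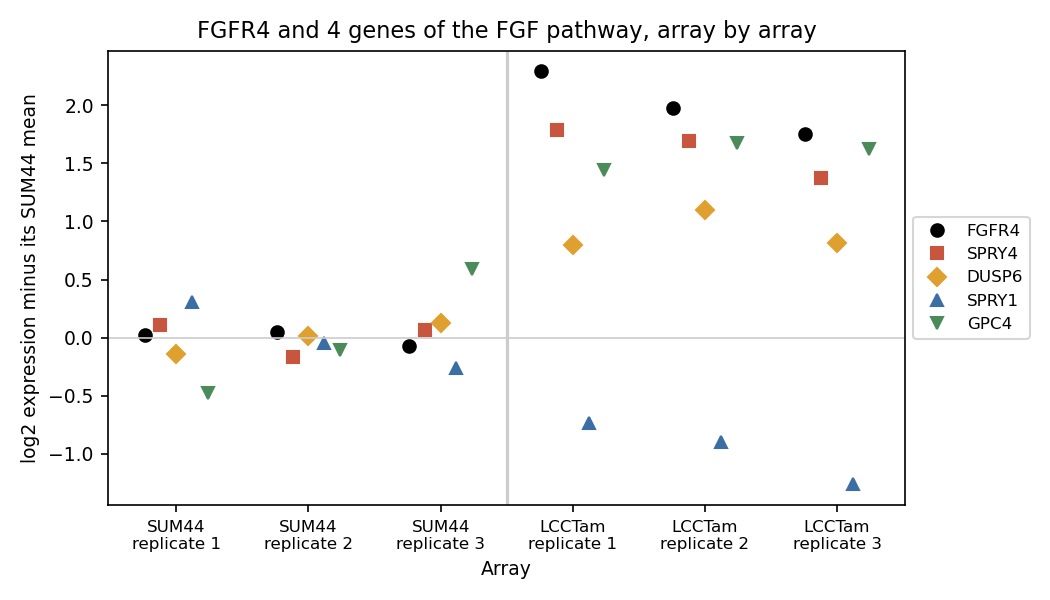
Log2 expression of FGFR4 (204579_at), SPRY4, DUSP6, SPRY1 and GPC4 on each array, each gene drawn relative to its own SUM44 mean. FGFR4, SPRY4, DUSP6 and GPC4 are above their SUM44 values on all 3 LCCTam arrays and SPRY1 is below, and GPC4 spreads most among the SUM44 arrays. The pathway genes drawn are a selection of those that passed, of which 6 rose and 6 fell.

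FGF response genes, which are transcribed after growth factor stimulation, had 12 measured members, of which 1 rose and 2 fell. Over all genes 2.03% passed as higher and 5.73% as lower. CCND1, which encodes cyclin D1, fell by 0.76 on the log2 scale (limma adjusted p = 0.0138) and the early response factor EGR1 fell by 0.74 (adjusted p = 0.0194), whereas IER3 rose by 0.49 (adjusted p = 0.0256). The other EGR1 probe set gave -0.13 (adjusted p = 0.524). CCND1 missed the threshold without SUM44 replicate 2 (adjusted p = 0.0737) or LCCTam replicate 1 (0.0679). EGR1 missed it without any one of SUM44 replicates 1 to 3 (0.0532 to 0.0746), and IER3 without any one of these or of LCCTam replicates 1 and 2 (0.0538 to 0.114). The ETS factors ETV1, ETV4 and ETV5, known transcriptional readouts of FGF signalling, had log2 differences of 0.39 (adjusted p = 0.175), 0.23 (adjusted p = 0.194) and 0.07 (adjusted p = 0.75). These are the brightest probe sets. Of the 5 probe sets of ETV1 1 passed, but its direction and level are not given here, so it is not read as a rise.

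The genes with profiles most like FGFR4 over the 6 arrays were found by the root mean square difference of log2 profiles, each centred on its own mean. SPRY4 was nearest to both FGFR4 probe sets, at 0.23 from 204579_at and 0.12 from 211237_s_at. After it came PFN2, TPM1, KRT13 and WDR45B for 204579_at, at 0.24 to 0.27, and GALNT6, H1-2, ALDH3B1 and ARHGAP26 for 211237_s_at, at 0.18 to 0.21. These profiles are set mainly by the difference between the lines, so they rank genes by the size of that difference and its spread. They carry no test.

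The neighbours of the FGFR genes on their chromosomes were read to set each receptor gene beside its surroundings. For each gene these were the 5 nearest measured genes on either side. Of the 10 around FGFR4, 0 passed in limma, with 3 at an unadjusted p under 0.05, near the 7.76% and 23.5% of all genes. Their log2 differences ran from -0.37 for RNF44 to 0.34 for SNCB, with a median of 0.07. Among the adjacent genes, UIMC1 differed by -0.10 and NSD1 by -0.15, beside 2.01 for FGFR4. Without LCCTam replicate 3 the gene LMAN2, named after its values were seen, passed at an adjusted p of 0.0184. Of 20 genes around FGFR4, 10 on either side, again 0 passed.

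**Figure D5:**
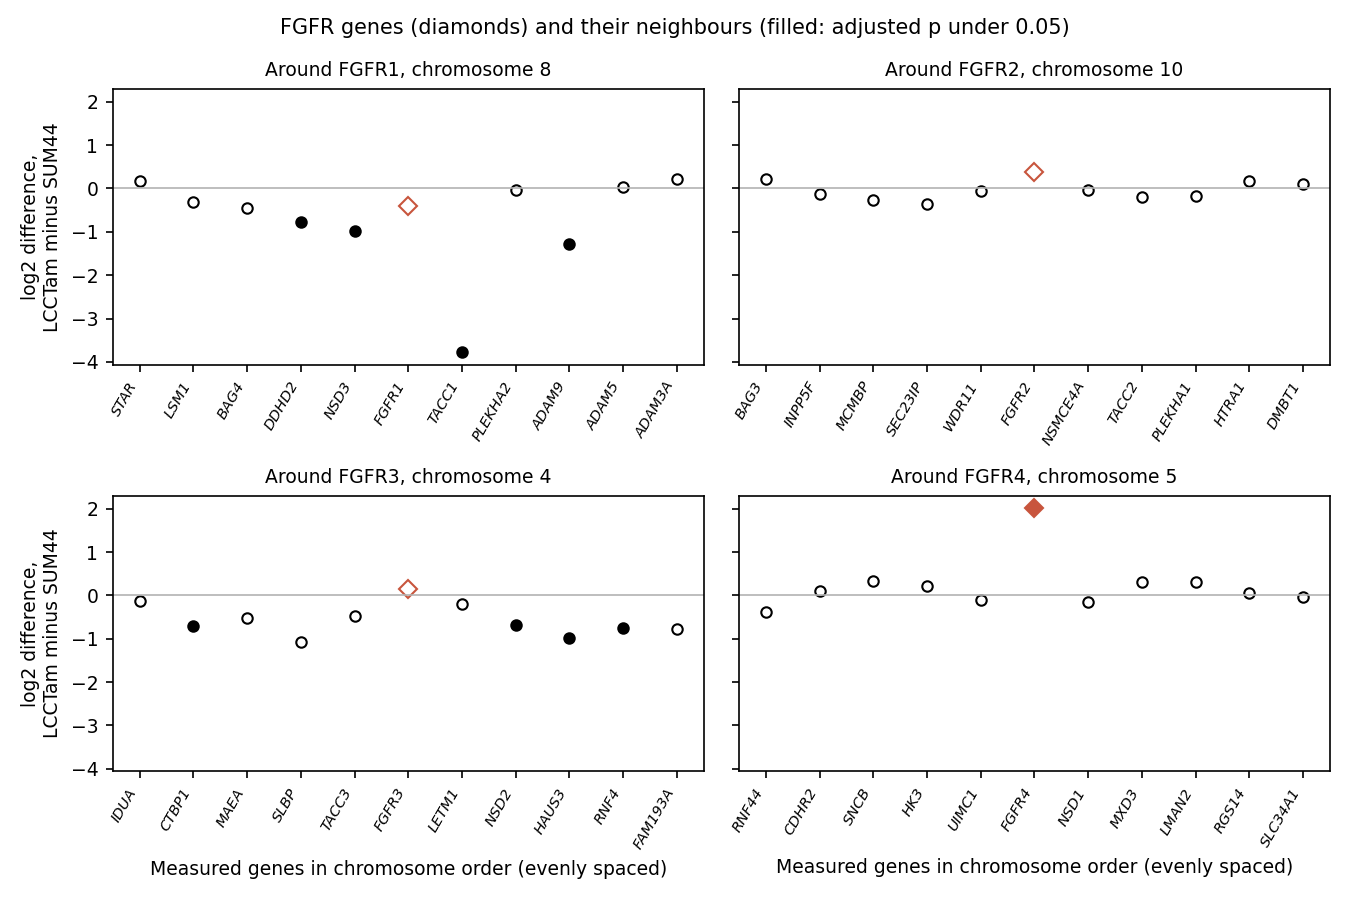
Log2 difference, LCCTam minus SUM44, of each FGFR gene (red diamond, brightest probe set) and of the 5 nearest measured genes on either side, in chromosome order and evenly spaced; filled symbols passed the limma test. FGFR4, at 2.01, stands above its neighbours, which lie between -0.37 and 0.34, and 4 genes around FGFR1 and 4 around FGFR3 are lower in LCCTam.

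Around FGFR1, on chromosome 8, 4 of 10 neighbours fell and 0 rose, and the median log2 difference was -0.39. They were TACC1 at -3.77, ADAM9 at -1.28, NSD3 at -0.98 and DDHD2 at -0.77, beside -0.40 for the brightest FGFR1 probe set. TACC1 varied widely within SUM44, at 10.7, 10.4 and 8.7 in replicates 1 to 3, against 6.5, 6.2 and 5.9 in LCCTam. The 95% interval of its log2 difference ran from -4.93 to -2.61. The other 6 neighbours did not pass, at -0.45 for BAG4, -0.32 for LSM1, -0.04 for PLEKHA2, 0.03 for ADAM5, 0.17 for STAR and 0.22 for ADAM3A. With 10 genes on either side 5 of 20 fell and the median was -0.04. Around FGFR3, on chromosome 4, 4 of 10 neighbours fell and 0 rose, with a median of -0.70. They were HAUS3 at -0.98, RNF4 at -0.74, CTBP1 at -0.70 and NSD2 at -0.70, and 10 of the 10 had negative differences, with SLBP, which did not pass, at -1.07. The FGFR3 probe sets themselves were dim. Without LCCTam replicate 3, HAUS3 no longer passed and FAM193A did. With 10 genes on either side 6 of 20 around FGFR3 fell, with a median of -0.57. FGFR2 on chromosome 10 had 0 of 10 neighbours passing in limma, with 2 at an unadjusted p under 0.05, and SEC23IP had the largest difference, at -0.36 (adjusted p = 0.14). With 10 genes on either side 1 of 20 fell, RGS10. The background of genes passing as lower was 5.73%. TACC1 and ADAM9 passed with each array left out in turn, at limma adjusted p-values of at most 0.0483 and 0.036. The count of 8 lower neighbours was 2 without SUM44 replicate 2 and 5 without SUM44 replicate 3. It was 2 without LCCTam replicate 1 and 3 without LCCTam replicate 2. The share of all genes passing in those fits is not given here.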

How the data were processed

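Each of the 6 RNA samples was hybridised to 1 array as biotin-labelled target. The file holds log2 expression, preprocessed by the authors with RMA, per the submitters' processing notes. RMA subtracts background, gives arrays a common distribution and combines a probe set's probes. No version or chip definition of it is stated in the sources used here, nor whether the 6 arrays were run jointly. The number of arrays limits the precision.

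Of 22283 probe sets 68 were controls, and 19065 others had 1 gene symbol in the platform annotation, with 19053 symbols updated by Entrez identifier through RefSeq (GRCh38.p14). The fit used lmFit and eBayes (limma 3.58.1, R 4.3.3) on all of these without an intensity filter (prior degrees of freedom 3.01) and was tested on simulated data. For pathway and neighbouring genes, the probe set with the highest mean stood for the gene. Ratios within arrays were tested with scipy 1.17.1. Promoter windows come from RefSeq.

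The members and lists were chosen with earlier results of these data known. Genes were named by rule: all members, every passing gene of a list or neighbourhood, the gene with the largest difference where none passed, and the 5 genes most like each passing member probe set. Other genes named were chosen after their values were seen. Scan dates were not used here, so whether array batch coincided with line was not examined, and a batch effect on the differences was not tested.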

Additional observations from a re-analysis of the deposited data

How the results depend on the processing

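Both FGFR4 probe sets passed under all alternatives in which they were fitted. The log2 difference of 204579_at ranged from 1.86 to 2.22 over 13 alternatives and that of 211237_s_at from 1.51 to 1.98 over 12, with adjusted p-values of at most 0.0111 and 0.0349. Of the FGFR probe sets, 1 passed as higher with 1 probe set per gene. With a trended, robust variance prior 1 passed as lower, and with array weights 3 passed as lower, 210973_s_at and 211535_s_at of FGFR1 and 208228_s_at of FGFR2, and 3 as higher, the additional one being 211400_at of FGFR2. For FGF pathway genes, a threshold of 2-fold gave 2 higher and 1 lower, array weights 21 and 12, and leaving out the _x_at and _s_at probe sets 3 higher and 5 lower. Leaving out 1 array at a time gave 2 to 7 higher and 0 to 8 lower. For neighbouring genes, 2 were lower at 2-fold, quantile normalization gave 1 higher, array weights 6 higher and 19 lower, and leaving out 1 array 0 to 1 higher and 2 to 8 lower. Each fit without 1 array leaves 2 arrays in a line. For most of these alternatives the share of all probe sets or genes passing is not given here. Their counts therefore do not set these genes apart from others. The causes of the changes between settings were not tested. No paired analysis was possible because the lines share no passage number in the labels. Low FGFR2 and FGFR3 levels cannot be told from background here, so a difference at those levels may not be detectable.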
